A study of Saccharomyces cerevisiae with 31 samples.

Results

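In budding yeast carrying the spt6-S8A allele, the RNA of 23 genes differed from wild type (WT), and these genes are described here by what their products do. They are every row of the authors' deposited comparison of spt6-S8A with WT at an adjusted p under 0.05, out of 694 genes listed in any of the study's comparisons. The study is about the role of casein kinase 2, which phosphorylates Spt6, in the work of Spt6 in Saccharomyces cerevisiae. The groups were 3 spt6-S8A and 3 WT RNA libraries, with 3 spt6-1004 and 3 spt6-S8E libraries as context. All cultures were grown in YPD, a rich glucose medium, at 30 °C and were collected at an optical density of 1 after dilution to 0.2. The genotype label gives no residue positions, strain background or clone. The allele spt6-S8A puts alanine, which cannot be phosphorylated, in place of serines that casein kinase 2 modifies. In spt6-S8E glutamate, often used to imitate phosphate, takes their place. The allele spt6-1004 lacks the helix-hairpin-helix domain of Spt6 and is a much used conditional mutant.

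Spt6 is a histone chaperone that travels with RNA polymerase II, binds the elongation factor Spn1 and puts nucleosomes back behind the polymerase. At SER3 this keeps a gene silent, because transcription of the upstream noncoding RNA SRG1 lays nucleosomes over the SER3 promoter and depends on Spt6 to do so. Loss of Spt6 function is known to raise SER3 and to start transcripts from cryptic promoters inside genes.

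The deposited tables hold base means, log2 fold changes with their standard error (SE) and p-values, with no value per library, so no spread between single libraries can be shown. A base mean is the average over all 12 RNA libraries, in a unit that the sources used here leave unnamed. Of the 431 genes that entered the adjustment for spt6-S8A, the 23 make up 5.34%, with 14 higher (3.25%) and 9 lower (2.09%). The 431 were taken to be the genes above a minimum base mean, and the lowest among the 23 was 32.6. SPT6 itself, SPN1, the casein kinase 2 genes CKA1, CKA2, CKB1 and CKB2 and 5 other genes of transcription elongation, a list of 11, were listed in none of the tables. Their base means are unknown, and so is whether any of them was among the 431. Their absence does not show that their RNA was at WT level in spt6-S8A.

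The 23 changes ranged from 3.46 to -1.32 on the log2 scale in the authors' deposited table. The median was 0.96 among the 14 higher genes and -0.76 among the 9 lower ones. Changes of at least 2-fold were found for 6 higher genes and 1 lower gene, so 16 of the 23 changed by less than 2-fold. The SEs lay between 0.18 and 0.45. Adjusted p-values from the authors' DESeq2 fit were under 0.001 for 5 genes and at least 0.03 for 12.

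**Figure D1:**
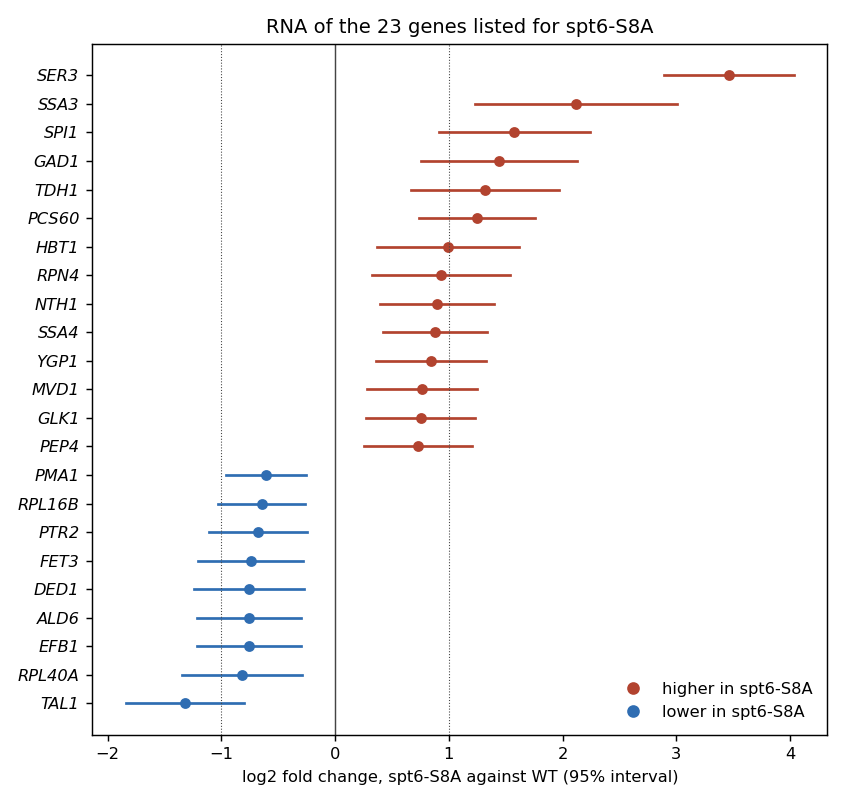
Log2 fold change of each of the 23 genes in spt6-S8A against WT, with its 95% interval computed from the deposited SE; dotted lines mark a 2-fold change. SER3 at 3.46 stands above the other 13 higher genes, whose values run from 2.12 to 0.73, and TAL1 at -1.32 is the lowest point.

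The gene with the largest change encodes an enzyme of serine synthesis. SER3 makes 3-phosphoglycerate dehydrogenase, which takes 3-phosphoglycerate from glycolysis into the serine pathway, and lies on chromosome V from 322686 to 324095 (assembly R64). Its RNA rose by 3.46 on the log2 scale (SE 0.29, DESeq2 adjusted p = 4.81e-30) according to the authors' deposited table, which is 11.0-fold, with a 95% interval of 7.43-fold to 16.4-fold. SER3 was listed for all 3 mutants, so its level in each genotype can be solved from the base mean of 124 and the 3 fold changes. The implied base means were 11.1 in WT, 122 in spt6-S8A, 74.4 in spt6-S8E and 290 in spt6-1004. In WT SER3 was thus among the lowest of the 23 genes by implied level, with GAD1 alone wholly below it, and in spt6-S8A it was close to the inducible Hsp70 genes SSA3 and SSA4. In RNA from whole cultures, more RNA per cell and more cells that make it cannot be told apart. Base means times 12 were whole numbers, which size factors of 1 would give, as would rounding after scaling, and the implied levels are on that unnamed scale. They are fitted values, and fold changes that look shrunken towards 0 make them approximate. Of the 7 genes in the list of serine and glycine synthesis, SER3 was the single one listed for spt6-S8A, while spt6-1004 had 2 higher and 1 lower. For scale, 5.63% of all 5668 genes adjusted for spt6-1004 were called higher and 6.62% lower. The other spt6-1004 genes of that list had base means under 32.6, so nothing is known of their change in spt6-S8A.

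Both stress-inducible Hsp70 genes of the cytosol rose. Hsp70 chaperones bind unfolded protein, and yeast makes SSA1 and SSA2 at all times and SSA3 and SSA4 under heat or starvation. In the authors' deposited table SSA3, on chromosome II from 84499 to 86448, stood at 2.12 (SE 0.45, adjusted p = 0.000291, DESeq2). Its 95% interval of 2.35-fold to 8.02-fold was the widest on the log2 scale. SSA4, on chromosome V from 364589 to 366517, was at 0.88 (SE 0.23) in the authors' deposited table, or 1.84-fold. Of the 8 cytosolic Hsp70 and Hsp110 genes, 5 were called in spt6-1004 at base means of at least 32.6. SSA3 and SSA4 were the 2 listed for spt6-S8A, beside 9.70% of all 237 genes so called, and the shares were not compared by a test. SSB1 and SSB2, the Hsp70 genes that serve nascent chains on the ribosome, were lower in the authors' deposited table of spt6-1004, at -1.33 and -1.97, and were not listed for spt6-S8A. By the approximate limits explained below, changes of up to 0.98 and 0.85 could have gone unlisted there.

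Other chaperone genes were also examined. Of 13 further heat shock chaperone genes, 0 were listed for spt6-S8A. In spt6-1004, 7 were higher and 1 lower, and 7 of these 8 had base means high enough to be adjusted for spt6-S8A. Of these 7, 6 were higher in spt6-1004. Over all 237 genes called in spt6-1004 at these base means, 9.70% were listed for spt6-S8A, and 23.3% of the 60 called higher. No difference of the 0 of 7 from these shares or from the Hsp70 genes was tested. A gene that was adjusted and missed the threshold had a p of at least 0.00278, and so a Wald statistic no larger than 2.99 in size. An approximate limit on its log2 fold change follows if its SE relates to the SE in spt6-1004 as in the 23 listed genes, where the ratio ran from 0.87 to 1.09. The ratio is not known for unlisted genes and can be larger in them, so these limits are not strict bounds. With the ratio of 1.09, the limit in spt6-S8A for the small heat shock gene HSP26 was 0.87, against 3.85 (SE 0.27) in the authors' deposited table of spt6-1004. For HSP82, an Hsp90 gene, the limit was 0.58 against 2.46 in the authors' deposited table of spt6-1004. Both limits lie far under the spt6-1004 values. HSP42, another small heat shock gene, had a limit of 0.77 against 2.60 in the authors' deposited table of spt6-1004. For HSP12 the limit of 1.66 was wide, against 4.32 (SE 0.51) in the authors' deposited table of spt6-1004. Smaller changes would not have been listed, so the missing entries do not show that the genes were at WT level.

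RPN4 was the one regulator of transcription among the 23. Its product activates the genes of the proteasome, the protease that destroys ubiquitin-tagged protein, and is itself destroyed by it within minutes. RPN4, on chromosome IV from 415113 to 416708, rose by 0.93 (SE 0.31, DESeq2 adjusted p = 0.0496) according to the authors' deposited table, the weakest p of the 23. Its unadjusted p of 0.00265 was the last inside the threshold, whereas any adjusted gene outside it had at least 0.00278. Of the 34 genes in the list of proteasome subunits and RPN4, the other 33 were listed for neither spt6-S8A nor spt6-1004. Over all adjusted genes, 5.34% were listed for spt6-S8A and 12.2% for spt6-1004. Base means of the 33 are unknown, so their absence says nothing of their change in spt6-S8A.

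Genes of the general stress response, which yeast switches on through Msn2 and Msn4 when growth slows, made up 7 of the 14 higher genes. The list has 51 genes. Of these, 45 were higher and 0 lower in spt6-1004, 21 of the 45 had base means that let them be adjusted for spt6-S8A, and 7 of the 21, or 33.3%, were listed there. Over all 60 genes called higher in spt6-1004 at these base means, 14, or 23.3%, were listed for spt6-S8A, and the shares were not compared by a test. Over those 7 genes the median was 0.89 on the log2 scale in spt6-S8A and 2.48 in spt6-1004. The 7 were SSA3, SSA4, SPI1, GAD1, NTH1, YGP1 and GLK1. Of these, SPI1 and GAD1 had implied means over WT and spt6-S8A under 32.6. High spt6-1004 levels were thus partly a condition of their being listed, and the share and medians above rest partly on that. Among the 14 not listed was RTN2, which encodes a reticulon and stood at 4.65 (SE 0.32) in the authors' deposited table of spt6-1004, with a limit of 1.05 in spt6-S8A. So 2 of the 3 genes with the highest values of this list in spt6-1004 at these levels, SSA3 and GAD1, were listed for spt6-S8A and RTN2 was not.

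**Figure D2:**
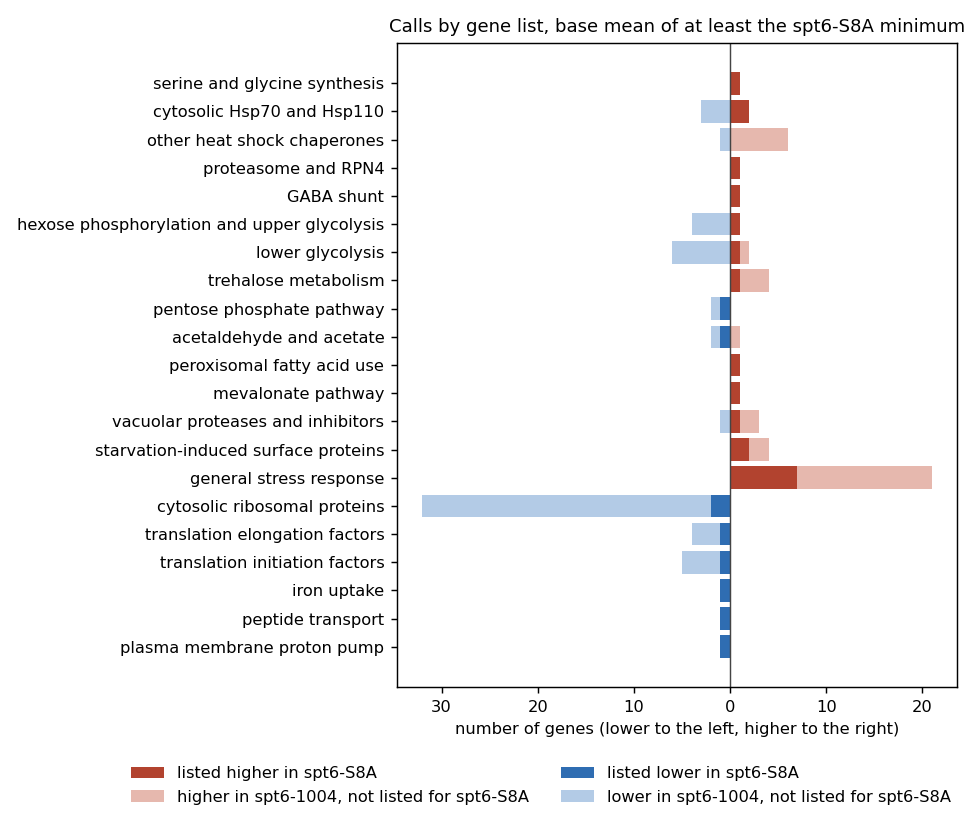
Number of genes per functional list that were called in spt6-1004 at base means at or above the lowest of the 23, split into those listed for spt6-S8A (dark) and not listed (light), higher to the right and lower to the left. General stress genes have 7 of 21 dark, the 32 ribosomal protein genes have 2, and other heat shock chaperones have none of 7.

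Several of these genes act on reserves and central carbon metabolism. GAD1 encodes glutamate decarboxylase, the first step of the GABA shunt, and lies on chromosome XIII from 770801 to 772558. GAD1 stood at 1.44 (SE 0.35, DESeq2 adjusted p = 0.00281) according to the authors' deposited table, or 2.72-fold. None of the other 4 GABA shunt genes was listed for spt6-S8A, and none is known to have been adjusted there. Of these 4, 1 was higher in spt6-1004 at a base mean under 32.6, and 3 had unknown base means. Their absence therefore says nothing of their change. NTH1 encodes neutral trehalase, which breaks down the storage sugar trehalose, and was at 0.89 (SE 0.25) in the authors' deposited table. Its partners in synthesis, TPS1 and TSL1, were higher in the authors' deposited table of spt6-1004 at 2.18 and 1.87 and were not listed for spt6-S8A, where their limits were 0.82 and 0.84. GLK1 encodes glucokinase, which phosphorylates glucose and is made mainly when glucose runs low. GLK1 was at 0.75 (SE 0.24) in the authors' deposited table, the single one listed of 9 genes of hexose phosphorylation and upper glycolysis. In spt6-1004, 2 of the 9 were higher and 4 lower, and GLK1 and the 4 lower ones had base means of at least 32.6. Of all 237 genes called in spt6-1004 at such base means, 9.70% were listed for spt6-S8A. FBA1, PFK1 and PFK2 were at -1.47, -1.05 and -0.91 in the authors' deposited table of spt6-1004. Their limits in spt6-S8A were 0.51, 0.68 and 0.57.

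TDH1 encodes the minor of the 3 glyceraldehyde-3-phosphate dehydrogenases, an isoform known from cells that enter stationary phase. TDH1, on chromosome X from 338271 to 339269, rose by 1.32 (SE 0.33, DESeq2 adjusted p = 0.00460) according to the authors' deposited table, or 2.49-fold. Its close copy TDH2 was lower in the authors' deposited table of spt6-1004, at -1.16, and was not listed for spt6-S8A, with a limit of 0.59. Reads of these copies can be shared, so their values are uncertain. Among the 9 genes of lower glycolysis, 6 were lower and 2 higher in spt6-1004. All 8 could be adjusted for spt6-S8A, and TDH1 was the one listed there. Of all 237 genes called in spt6-1004 at base means of at least 32.6, 9.70% were listed for spt6-S8A. TDH1 had an implied mean over WT and spt6-S8A of 17.6 to 20.2, so its high spt6-1004 level was partly a condition of being listed. ENO2, PGK1 and TDH2 had limits from 0.51 to 0.59 in spt6-S8A, where they were not listed.

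TAL1 had the largest decrease and the second smallest p. It encodes transaldolase, which joins the non-oxidative branch of the pentose phosphate pathway to glycolysis, and lies on chromosome XII from 836350 to 837357. TAL1 stood at -1.32 (SE 0.27, DESeq2 adjusted p = 0.000145) according to the authors' deposited table, so its RNA was 40.0% of WT, with a 95% interval of 27.9% to 57.5%. TKL1, the transketolase gene of the same branch, was at -0.81 in the authors' deposited table of spt6-1004 and was not listed for spt6-S8A, with a limit of 0.62. Of the 11 pentose phosphate genes, 5 were higher and 3 lower in spt6-1004, and TAL1 alone was listed for spt6-S8A. Of those 8, 6 had base means under 32.6, all 5 higher ones among them, so their absence from the spt6-S8A table says nothing of their change. ALD6, which encodes the cytosolic acetaldehyde dehydrogenase that makes acetate and NADPH, was at -0.76 (SE 0.23) in the authors' deposited table, or 59.2% of WT. PDC1, the pyruvate decarboxylase gene one step before it, was at -1.46 in the authors' deposited table of spt6-1004 and was not listed for spt6-S8A, with a limit of 0.45. The list of 10 acetaldehyde and acetate genes had 5 higher and 3 lower in spt6-1004, and 5 of these 8 had base means under 32.6. ALD4, the mitochondrial acetaldehyde dehydrogenase gene, was higher in the authors' deposited table of spt6-1004, at 0.76, and was not listed for spt6-S8A, with a limit of 0.88.

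PCS60 and MVD1 belong to lipid-related and peroxisomal metabolism. PCS60 encodes a peroxisomal enzyme that joins oxalate to coenzyme A, and lies on chromosome II from 666720 to 668351. PCS60 was at 1.25 (SE 0.26, DESeq2 adjusted p = 0.000266) according to the authors' deposited table, the third smallest p of the 23. Of the 12 genes in the list of peroxisomal fatty acid use, 4 were higher in spt6-1004, and PCS60 was the one of them at or above a base mean of 32.6. MVD1, also called ERG19, encodes mevalonate pyrophosphate decarboxylase on the way to sterols. MVD1 stood at 0.76 (SE 0.25, DESeq2 adjusted p = 0.0447) according to the authors' deposited table. The mevalonate list of 9 genes had 1 higher and 2 lower in spt6-1004, and MVD1 was the higher one. The 2 lower ones had base means under 32.6, so their absence says nothing of their change in spt6-S8A.

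The remaining higher genes act at the cell surface and in the vacuole. SPI1 encodes a cell wall protein made in stationary phase and under weak acid, and lies on chromosome V from 468370 to 468816. SPI1 rose by 1.57 (SE 0.34, DESeq2 adjusted p = 0.000295) according to the authors' deposited table, or 2.97-fold. YGP1, which encodes a secreted glycoprotein made on nutrient limitation, was at 0.84 (SE 0.24) in the authors' deposited table. Of the 8 starvation-induced surface genes 5 were higher in spt6-1004, 4 of them at base means of at least 32.6. SPI1 and YGP1 were the 2 listed for spt6-S8A, beside 23.3% of all 60 genes called higher at these base means. SPI1 had an implied mean over WT and spt6-S8A of 22.9 to 28.9, so its high spt6-1004 level was partly a condition of being listed. HSP150, a wall protein gene at 1.48 in the authors' deposited table of spt6-1004, was not listed and had a limit of 0.83. HBT1, whose product is found at the tip of mating projections, was at 0.99 (SE 0.32) in the authors' deposited table. PEP4 encodes proteinase A, which activates the other proteases of the vacuole, and was at 0.73 (SE 0.24, DESeq2 adjusted p = 0.0491) according to the authors' deposited table. PRB1, the proteinase B gene, was at 0.72 in the authors' deposited table of spt6-1004, and its limit of 0.75 in spt6-S8A leaves room for a change of that size. CPS1, which encodes a vacuolar carboxypeptidase, was at 1.46 in the authors' deposited table of spt6-1004 with a limit of 0.68 in spt6-S8A. PRC1, the carboxypeptidase Y gene, was lower in the authors' deposited table of spt6-1004, at -1.10, with a limit of 0.86. The 10 genes of vacuolar proteases and their inhibitors had 6 higher and 1 lower in spt6-1004. Of these, 3 had base means under 32.6, so nothing is known of their change in spt6-S8A. Among the 4 others PEP4 was the one listed for spt6-S8A, beside 9.70% of all 237 genes called in spt6-1004 at such base means.

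Among the 9 lower genes, 4 belong to 3 lists of translation genes, which hold 41 genes called lower in spt6-1004 at base means of at least 32.6. That is 9.76% of the 41, against 5.08% of all 177 such genes, a difference that was not tested. EFB1 encodes the exchange factor that recharges elongation factor eEF1A with GTP, and lies on chromosome I from 142174 to 143160. EFB1 was at -0.76 (SE 0.23, DESeq2 adjusted p = 0.0390) according to the authors' deposited table, or 59.1% of WT. DED1 encodes an RNA helicase that helps the ribosome scan to the start codon. It was at -0.76 (SE 0.25) in the authors' deposited table, or 59.2% of WT. TEF4, a gene of the same exchange complex as EFB1, was at -1.84 in the authors' deposited table of spt6-1004, had a limit of 0.78 in spt6-S8A and was not listed there. In spt6-1004, 5 of the 11 elongation factor genes were lower and 1 higher, and 7 of the 20 initiation factor genes were lower. Only 4 and 5 of these, all lower, had base means of at least 32.6. Each list held 1 gene listed for spt6-S8A.

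Ribosomal protein genes contributed RPL40A and RPL16B. RPL40A, on chromosome IX from 68708 to 69528, encodes a ubiquitin joined to a large subunit protein and was at -0.82 (SE 0.27, DESeq2 adjusted p = 0.0491) according to the authors' deposited table. Its near-identical copy RPL40B had the same base mean of 33.8 and was at -2.09 in the authors' deposited table of spt6-1004, next to -2.08 for RPL40A. RPL40B was not listed for spt6-S8A, where its limit of 1.04 leaves room for the change of RPL40A. Reads of these copies can be shared, and both values are uncertain. RPL16B, a large subunit protein gene with a close copy, RPL16A, was at -0.64 (SE 0.20) in the authors' deposited table, or 64.0% of WT. The ribosomal protein list has 137 genes, 102 of them lower in spt6-1004, and 32 of these were adjusted for spt6-S8A. The 30 not listed had limits from 0.72 to 1.07, each smaller than the size of its own spt6-1004 change, which ran from -0.93 to -2.21. That was largely set by their being called in spt6-1004, since each limit is a multiple of the SE there. These 2 of 32 genes, 6.25%, stand beside 9 of 177, or 5.08%, over all genes called lower in spt6-1004 at these base means, so the ribosomal protein share was near the general one.

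The last lower genes carry ions and nutrients across the plasma membrane. PMA1 encodes the proton pump that drives most uptake into the cell and had the highest base mean of the 23, at 323. It lies on chromosome VII from 479910 to 482666 and stood at -0.61 (SE 0.18, DESeq2 adjusted p = 0.0259) according to the authors' deposited table, or 65.5% of WT. Its SE was the smallest of the 23. FET3 encodes the copper-containing oxidase of high-affinity iron uptake and was at -0.74 (SE 0.24) in the authors' deposited table. PTR2, the transporter of di- and tripeptides, was at -0.68 (SE 0.22) in the authors' deposited table. Each was the one gene of its list (7 proton pump, 17 iron uptake and 9 peptide transport genes) known to have been adjusted for spt6-S8A, so the absence of the others says nothing of their change. The iron uptake list had 4 higher and 2 lower in spt6-1004, FET3 being lower.

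Each of the 23 genes was also listed for spt6-1004 with the same sign, and both comparisons share the WT libraries. At least 237 of the 431 adjusted genes, 55%, were called in spt6-1004, with 13.9% higher and 41.1% lower. In all 23 the spt6-1004 change was the larger one, by amounts that differed widely between genes. On the log2 scale the difference, spt6-1004 minus spt6-S8A, was 3.16 for SSA3, with a 95% interval of 1.91 to 4.41. For GAD1 it was 3.13 (2.20 to 4.07), for HBT1 2.43 (1.58 to 3.27), for TDH1 2.24 (1.35 to 3.13) and for SSA4 2.18 (1.54 to 2.81). The lower bounds of these 5 lie above those of the other 9 higher genes. SER3 differed by 1.24 (0.44 to 2.04). Among lower genes PMA1 differed by -1.67 (-2.19 to -1.16), RPL16B by -1.36 (-1.94 to -0.78) and RPL40A by -1.26 (-2.06 to -0.45). GAD1, HBT1, TDH1 and SPI1 were adjusted for spt6-S8A with high spt6-1004 libraries in the average, their implied levels in WT and spt6-S8A being under 32.6 on average, so a large spt6-1004 value was partly a condition of being listed for them. These intervals treat the errors as independent and are not widened for the number of genes compared.

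Other genes had nearly the same value in both mutants. PCS60 was at 1.25 and 1.34 in the authors' deposited tables of spt6-S8A and spt6-1004, a difference of 0.10 with an interval of -0.63 to 0.82. MVD1 was at 0.76 and 0.81 there, a difference of 0.04 (-0.64 to 0.73). For TAL1 the authors' deposited tables gave -1.32 and -1.52, a difference of -0.20 (-0.95 to 0.54), and for DED1 -0.76 and -1.04, a difference of -0.28 (-0.97 to 0.41). The intervals of SPI1, RPN4, PEP4, FET3 and ALD6 also held 0, so 14 of the 23 intervals left it out and 9 did not. An interval that holds 0 does not show equal changes, and genes picked for a small p in spt6-S8A tend to have overestimated changes there.

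**Figure D3:**
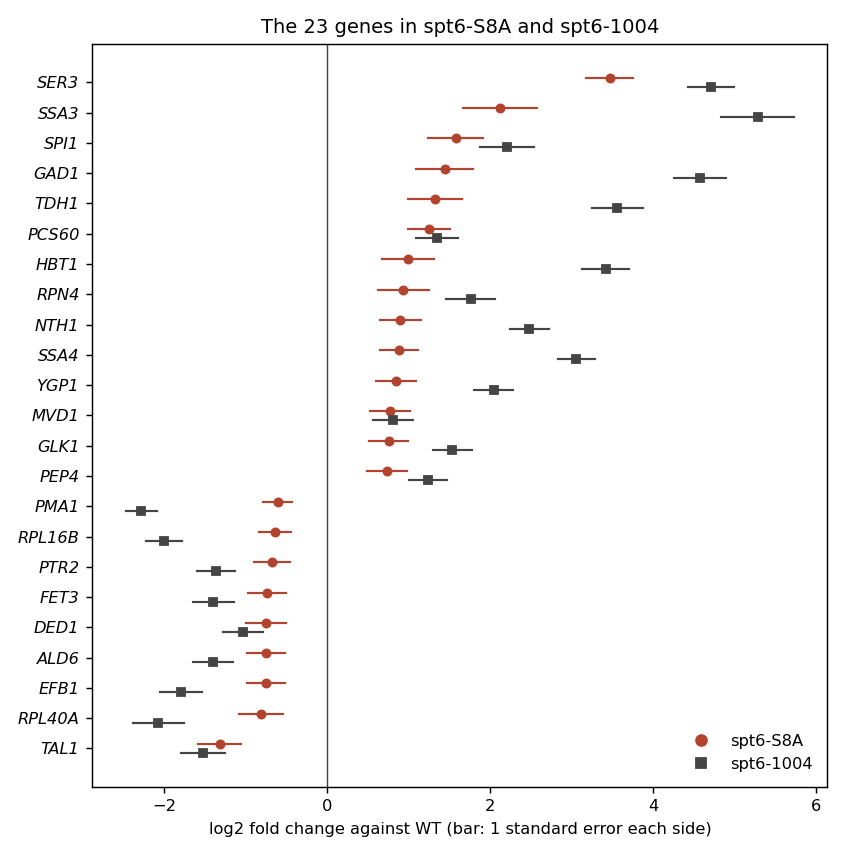
Log2 fold change of the 23 genes in spt6-S8A (circles) and spt6-1004 (squares), each against the same WT libraries, with 1 SE to each side. The points lie far apart for SSA3 (2.12 and 5.28) and GAD1 (1.44 and 4.58) and nearly coincide for PCS60 (1.25 and 1.34) and MVD1 (0.76 and 0.81).

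In spt6-S8E the authors' deposited table lists SER3 alone, at 2.75 (SE 0.30, adjusted p = 9.31e-17, DESeq2), 0.0176% of 5668 genes adjusted. The Wald statistic of any other gene was no larger than 4.29 in size there. If the SE in spt6-S8E was that of spt6-S8A, this leaves the other 22 genes changes of up to 0.77 for PMA1 and up to 1.94 for SSA3. For 18 of the 22 this limit was as large as the change in spt6-S8A or larger. The exceptions were SSA3, SPI1, PCS60 and TAL1, whose spt6-S8A values of 2.12, 1.57, 1.25 and -1.32 exceeded limits of 1.94, 1.45, 1.12 and 1.14. The difference between the alleles was not tested for these genes.

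Levels in each genotype were implied by the base mean and the fold changes, as a range where the spt6-S8E value is not known. For SSA3 they were 23.8 to 25.7 in WT, 103 to 112 in spt6-S8A and 924 to 998 in spt6-1004, so spt6-1004 supplied 80.9% to 87.4% of the base mean. GAD1 had 8.32 to 9.06 in WT and 22.6 to 24.6 in spt6-S8A, under the lowest base mean of 32.6 in both. With SPI1, TDH1 and HBT1, GAD1 formed 4 genes whose implied mean over WT and spt6-S8A lay below 32.6 throughout the range. These 4 reached the level at which genes were adjusted with the spt6-1004 libraries in the average. Of the rest, 16 lay at or above it throughout, and RPN4, RPL40A and TAL1 fell on either side depending on spt6-S8E.

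**Figure D4:**
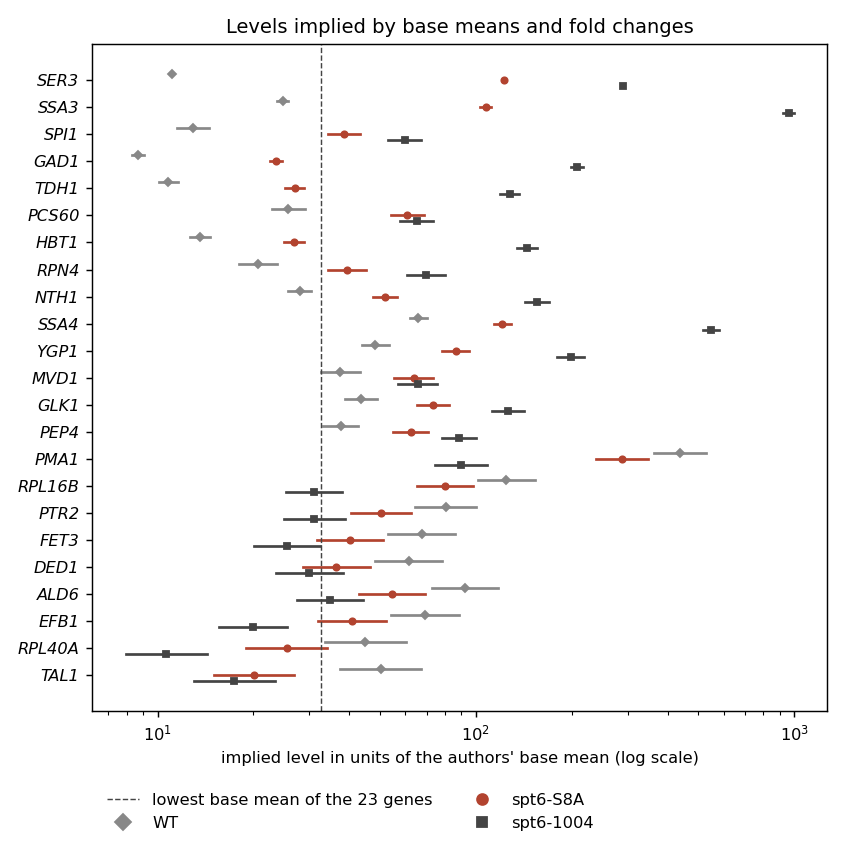
Levels of the 23 genes implied for WT (diamonds), spt6-S8A (circles) and spt6-1004 (squares), on a log axis in units of the authors' base mean; bars span the range that the unknown spt6-S8E value allows. GAD1, TDH1, SER3, SPI1 and HBT1 have the lowest WT levels, between 8.32 and 14.6, and PMA1 the highest, at 363 to 529.

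A wider view comes from the 214 genes that were called in spt6-1004, had base means of at least 32.6 and were not listed for spt6-S8A. Of these, 46 were higher and 168 lower in spt6-1004. The approximate limit on their spt6-S8A change had a median of 0.84, and for 187 of the 214 the spt6-1004 change was larger than its limit. Each limit is a multiple of the SE in spt6-1004, where a call already required a Wald statistic above about 2.74. Most of the 214 were thus bound to exceed their limits, and the count does not measure their changes in spt6-S8A. Among the 33 named members of the lists, 30 exceeded theirs and ALD4, PRB1 and TEF1 did not. These members were named for the size of their spt6-1004 changes, so that count too was largely set by the choice.

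**Figure D5:**
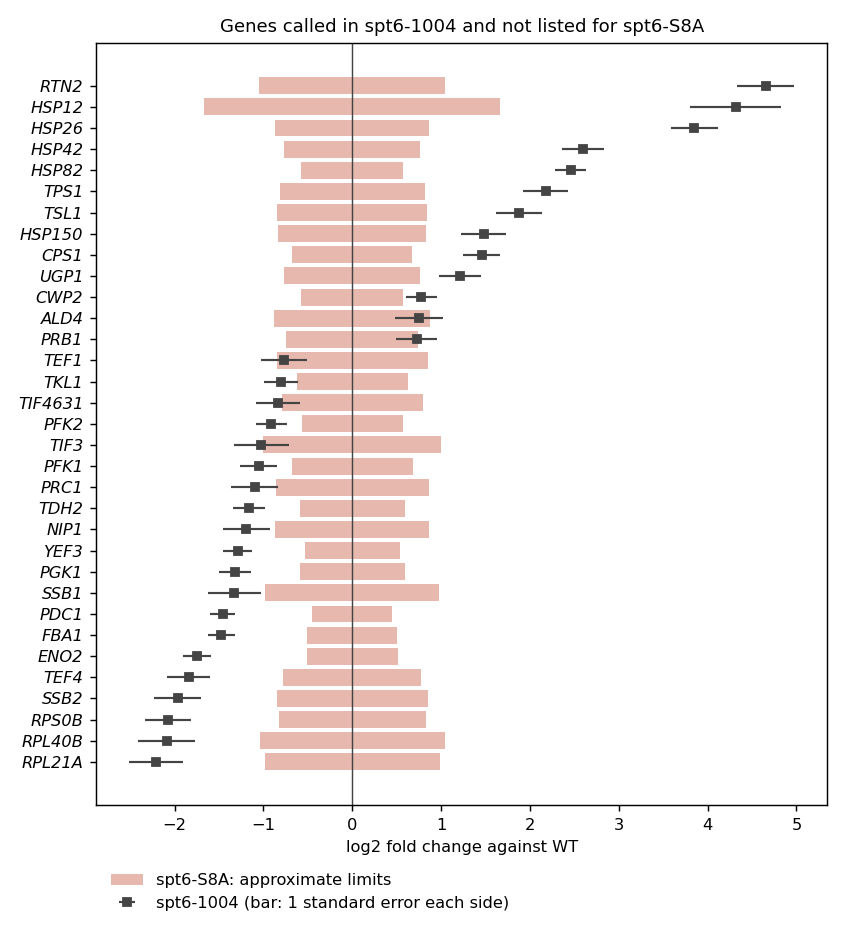
The 33 named list members called in spt6-1004 and not listed for spt6-S8A: log2 fold change in spt6-1004 with 1 SE to each side (squares), and bars that span the approximate limits of the change in spt6-S8A. For 30 of the 33 genes the square lies outside its bar, with RTN2 at 4.65 against a limit of 1.05 at the top and RPL21A at -2.21 at the bottom. The genes were chosen by the size of their spt6-1004 changes and the bars scale with the SE there, so this count was largely set by the choice.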

How the data were processed

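The submitters' processing notes name DESeq2 1.14.1, STAR 2.5.2b, cutadapt 1.10, SAMtools 1.3.1, Salmon 0.8.1 and bedtools 2.26, and the build sacCer3, without their roles. Per the labels' protocols, ERCC spike-ins were added after ribosomal RNA depletion, and stranded libraries were read from both ends. Per the file headers, the deposited tables give a base mean (a signal in a unit not given), log2 fold changes with SE, a Wald score and p-values with Benjamini-Hochberg adjustment, already limited to adjusted p under 0.05. How spike-ins entered the scaling is not given, and the depth per library is unknown. Replicates are not said to be separate cultures, so p-values may measure technical spread.

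From these values, Python 3.11.15 with scipy 1.17.1 was used to recover the number of adjusted genes by inverting the adjustment, which matched 23 of 23 rows for spt6-S8A and was tested on simulated data. Intervals of 95% use the deposited SE. Gene positions and names came from a RefSeq table of assembly R64, which matched all 23 identifiers. Base means times 12 were whole numbers in all rows (tolerance 1e-06), so size factors of 1, or values rounded after scaling, may lie behind them. All 23 genes are named, and further genes only as members of 22 lists, at most 4 of each by size in spt6-1004. Members and lists were chosen with earlier results of these data known. Promoter motifs and protein identity were planned and not analysed here for want of sequences, and another 19 chromatin samples were not used here.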

Additional observations from a re-analysis of the deposited data

How the results depend on the processing

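The count of 23 genes depends on the threshold. At an adjusted p under 0.01 it was 8 (7 higher, 1 lower), and at a change of at least 2-fold it was 7 (6 higher, 1 lower). Bonferroni adjustment over the 431 genes also left 7 (6 and 1). Adjusted over 5668 genes, at least 6 pass (5 higher, 1 lower): SER3, SSA3, SPI1, GAD1, PCS60 and TAL1. At base means of at least 100 there were 4, of which 3 (SER3, SSA3 and SSA4) were higher and 1 (PMA1) was lower. In settings chosen after seeing the data, 20 genes were left without TDH1, RPL40A and RPL16B, and 16 with an implied mean over WT and spt6-S8A of at least 32.6, of which 9 were higher and 7 lower. That last setting moved the higher genes from 14 to 9. With an error correlation of 0.5 between the mutants, which share the WT libraries, 18 in place of 14 intervals between the mutants left out 0, RPN4, PEP4, FET3 and ALD6 being added. Counts per list moved by over 1.5 times in 14 of 20 lists at an adjusted p under 0.01 and in 15 of 20 at 2-fold. No paired analysis was possible because the tables hold no value per library, and for the same reason no replicate could be left out. The settings without close copies by protein identity and with another promoter window were not run, as no sequences were used. Fold changes that look shrunken, and the unknown depth, limit what can be said of genes with low levels.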

Other observations

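The 23 genes lie on 14 of 16 nuclear chromosomes, with at most 3 on any one, and no pair of them are neighbouring protein-coding genes. Of their 46 neighbours, 7, or 15.2%, were called in spt6-1004, near the 12.2% over all genes adjusted there. For spt6-S8A 0 were listed, beside 5.34% of all genes adjusted there. Of the 7, only ILS1 and RPL40B had base means of at least 32.6, and those of the uncalled neighbours are unknown. The 0 therefore says little of the change of the neighbours in spt6-S8A. The neighbours named here were chosen after their values were seen. PTR2, lower in both mutants, sits between SRP40, at -1.48, and RPL40B, at -2.09 in the authors' deposited table of spt6-1004. HBT1, higher in both, lies beside FMP45, at 2.57 in the authors' deposited table of spt6-1004. Beside SSA4 and SSA3, both higher, RPS8B and ILS1 were lower in the authors' deposited table of spt6-1004, at -1.68 and -0.93. The median annotated span of the 23, introns included, was 1503 bp, against 1200 bp over all nuclear protein-coding genes, which was not tested.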
